A study of Mus musculus with 24 samples.

Results

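Loss of 1 Pax5 copy was examined within overt leukaemia driven by the fusion oncogene BCR/ABLp190. The comparison set 7 arrays of tumour-bearing bone marrow from Sca1-BCR/ABLp190+Pax5+/- mice (Pax5+/- leukaemias) against 2 arrays of tumour-bearing marrow from Sca1-BCR/ABLp190 mice (leukaemias with both copies), taken by their sample titles. These 9 are among the series' 24 arrays. Both groups carry the same transgene, the oncogene placed under the Sca1 promoter, which is active in haematopoietic stem and progenitor cells, so they differ by label only in the Pax5 genotype. No agent was given, the animals were kept in a conventional facility with exposure to common pathogens, and the sources used here state no ages. Each array is labelled as a biological replicate. The labels name no cell sort for the leukaemic marrow. Normal B220+ B cells, from the marrow of 5 wild-type mice, entered the same fit and supply a level for comparison. Sorted pro-B and pre-B cells from mice without overt disease make up the rest: 3 Sca1-BCR/ABLp190+Pax5+/- samples, 3 Sca1-BCR/ABLp190 samples and 4 wild-type samples.

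Pax5 is the transcription factor that commits lymphoid progenitors to the B lineage, switching on genes of B cell identity and holding down genes of other lineages. It is among the genes most often lost or mutated in precursor B cell acute lymphoblastic leukaemia, where BCR/ABLp190 is a well-known driver kinase. Work in B cells has also tied PAX5 and IKZF1 to restraint of glucose uptake and energy supply.

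Values are log2 expression after RMA, so a difference of 1 is a doubling, and every difference is given as Pax5+/- minus both copies, with its standard error, from limma with Benjamini-Hochberg adjustment over 19938 genes and a threshold of 0.05. Precision is limited by the number of arrays. The 24 arrays correlated with one another between 0.906 and 0.995. Within the Pax5+/- leukaemias the correlation lay between 0.954 and 0.983, and between the leukaemias with both copies it was 0.947. On the first principal component of the 9 leukaemia arrays, which held 35.7% of the variance, the Pax5+/- leukaemias lay between -47.3 and 26.7, array 1 with both copies stood apart at 74.4, and array 2 with both copies was at -3.6. Limma's array weights were between 0.671 and 1.08 for the Pax5+/- leukaemias and 0.398 for each array with both copies. In a group of 2 arrays the weights are equal by construction, so they cannot tell which array is unusual. The arrays with both copies differed from each other by more than 1 log2 unit in 2178 genes. The fit was therefore repeated without array 1 and without array 2, by which the arrays with both copies are always meant. These repeats are given for the medians of the 41 gene lists, and for single genes where a repeat changed the call or moved a value past the test by more than 1.5 times. The array that remains is then assumed to vary like the other groups. Counts of list members past the test in a repeat are to be read beside the share of all genes past it there, given below. The main fit also shares its spread with the B220+ cells. With the 9 leukaemia arrays alone, 36 of 49 named genes past the test lost the call.

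The 2 marrows with both copies held different mixtures of blood cell transcripts. The examples that follow were chosen after their values were seen. Mean log2 levels of 14 erythroid markers ran from 6.93 to 10.87 in the Pax5+/- leukaemias, with a median array at 8.51, against 11.98 and 7.96 on arrays 1 and 2 with both copies. Array 1 thus lay above all 7 Pax5+/- leukaemias and array 2 within their range. In contrast, Mecom, a stem cell and leukaemia transcription factor, was at 5.08 to 5.30 in the Pax5+/- leukaemias, against 5.48 on array 1 and 10.64 on array 2 with both copies. Cd34, a surface antigen of progenitors, spanned 6.67 to 8.79 in the Pax5+/- leukaemias, against 8.58 on array 1 and 11.96 on array 2. The cytokine receptor Flt3 was at 10.33 to 11.52 in the Pax5+/- leukaemias, against 6.05 on array 1 and 11.77 on array 2.

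**Figure D1:**
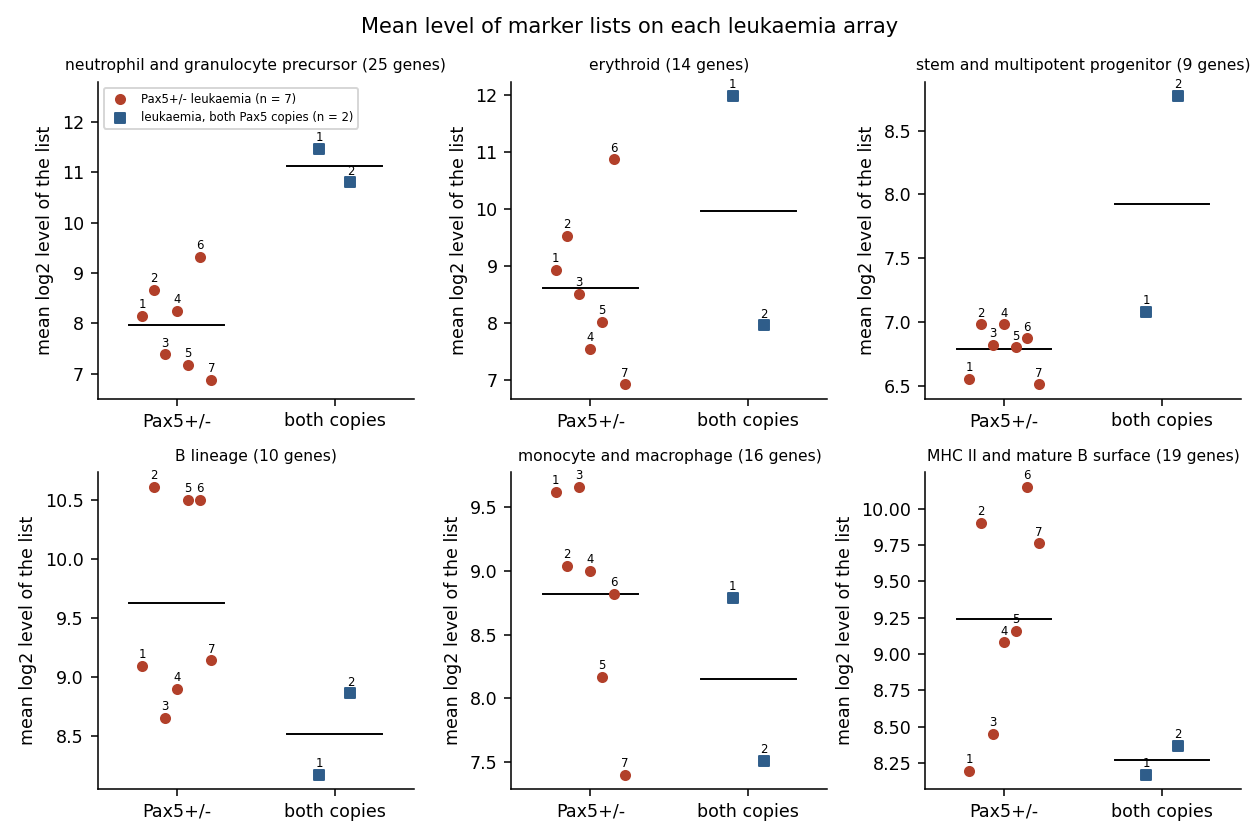
Mean log2 level of 6 gene lists on each array of the Pax5+/- leukaemias (circles, n = 7) and of the leukaemias with both copies (squares, n = 2); numbers are replicate numbers, lines are group means and each panel has its own y axis. Neutrophil markers were lower on all 7 Pax5+/- arrays (6.87 to 9.32) than on both arrays with both copies (11.46 and 10.80), whereas the erythroid level with both copies was high on array 1 (11.98) and not on array 2 (7.96).

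The label of B cell leukaemia was checked against 10 measured B lineage markers. Their mean log2 level on Pax5+/- arrays 1 to 7 was 9.09, 10.61, 8.65, 8.90, 10.50, 10.50 and 9.14, against 8.17 and 8.86 with both copies and 11.88 to 12.14 in wild-type B220+ cells. Every leukaemia therefore lay below normal B cells on these markers, and Pax5+/- array 3 was below array 2 with both copies. In bulk marrow, fewer B lineage cells and less RNA of these genes per cell cannot be told apart.

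Pax5 itself was read before any other gene. Its log2 level was lowest at 8.37, with a median of 10.30 and a highest value of 12.06, in the Pax5+/- leukaemias, against 8.10 and 8.39 in the leukaemias with both copies. Pax5+/- array 5 was below array 2 with both copies, so the groups overlap. The difference of 1.83 ± 0.73 missed the threshold (adjusted p = 0.263), also without array 1 (adjusted p = 0.725) and without array 2 (adjusted p = 0.289). The mean level was thus higher with 1 copy than with both, without passing the test. Since the sources do not place the probe set on the disrupted allele, this level is no check of the genotype. The mouse genes Abl1 and Bcr differed by 0.28 ± 0.24 and -0.03 ± 0.24 (adjusted p = 0.711 and 0.977), and Abl1 turned in sign between the repeats, at -0.38 without array 1 (adjusted p = 0.544) and 0.93 without array 2 (adjusted p = 0.00451). Whether these probe sets read the transgene is not known. Xist was high in 3 of the 7 Pax5+/- leukaemias and 1 of the 2 with both copies, so both groups hold marrow of both sexes. The Y-linked genes Eif2s3y, Kdm5d and Uty differed by 0.04 ± 1.58, 0.47 ± 1.00 and 0.44 ± 1.37, without passing.

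Of 19938 genes, 373 passed the test, or 1.87% (2766 had an unadjusted p under 0.05). Counts of list members at that unadjusted level are to be read beside the 2766 of all 19938 genes. In the Pax5+/- leukaemias 142 genes were higher (0.712% of all tested) and 231 were lower (1.16%). The median difference of all genes was 0.0154, and 54.5% of genes had a difference above 0. Of the 373 genes, 372 had arrays that did not overlap between the groups, which held for 8.54% of all genes. The overlap is read from the same leukaemia arrays as the test, so this count adds no support to the calls. A difference of at least 1 log2 unit was present in 92 of the higher and 137 of the lower genes. Without array 1 the count was 281 (1.41%), of which 129 were among the 373, and without array 2 it was 2137 (10.7%), of which 324 were. Both of these repeats kept 105 genes, 33 higher and 72 lower.

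**Figure D2:**
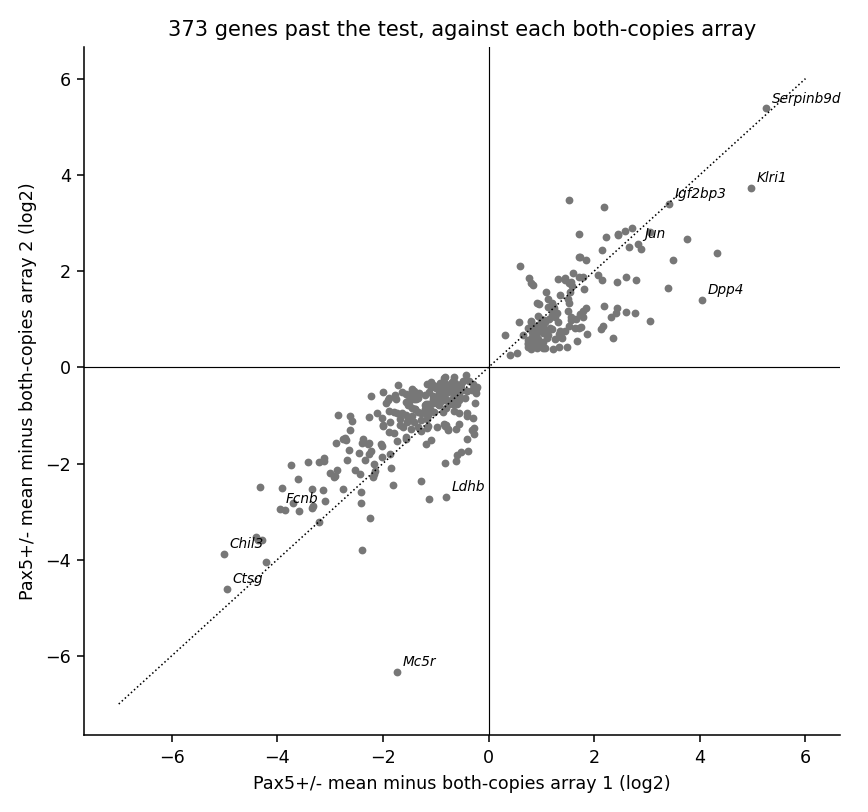
Each point is 1 of the 373 genes past the test; the x axis is the mean of 7 Pax5+/- leukaemias minus array 1 with both copies and the y axis the same mean minus array 2 with both copies, both in log2 units, with the dotted line marking equal differences. Ctsg (-4.95 and -4.61) and Igf2bp3 (3.42 and 3.40) lie near that line, while Mc5r (-1.73 and -6.33) lies far from it.

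Among 41 gene lists, the neutrophil list had the most genes past the test. Of 25 measured neutrophil and granulocyte precursor markers, 12 fell in the Pax5+/- leukaemias and 0 rose, all 25 had a difference under 0, and the median was -3.41. In 21 of the 25 the groups did not overlap, against 4.29% of all genes not overlapping in that direction. The list's array means were 6.87 to 9.32 in the Pax5+/- leukaemias, against 11.46 and 10.80 in those with both copies, while the B220+ cells had 7.03 to 9.63. All 7 Pax5+/- marrows therefore lay below both marrows with both copies. Without array 1 the median was -2.94 with 6 genes lower, and without array 2 it was -3.70 with 12 lower.

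Proteases and peroxidase of primary granules, made by promyelocytes, fell in 4 of 4 genes with a median of -4.06. Promoters of 4 of the fallen genes are shown, from this list because it had the most genes past the test. The 4 promoters were picked by hand, and all 4 hold a marked site, so they do not stand for all fallen genes. Each covers 300 bases around the RefSeq start, most of them upstream (build GRCm38.p6), and capitals mark GAGGAAGT, a PU.1-type site, or TTGCNNAA, a C/EBP-type site, each searched on both strands and not overlapping in the promoters shown. Elane is at chr10:79886062-79886361 (plus strand), its neighbour Prtn3 at chr10:79879417-79879716 (plus), Mpo at chr11:87793534-87793833 (plus) and Fcnb at chr2:28084829-28085128 (minus).
Elane: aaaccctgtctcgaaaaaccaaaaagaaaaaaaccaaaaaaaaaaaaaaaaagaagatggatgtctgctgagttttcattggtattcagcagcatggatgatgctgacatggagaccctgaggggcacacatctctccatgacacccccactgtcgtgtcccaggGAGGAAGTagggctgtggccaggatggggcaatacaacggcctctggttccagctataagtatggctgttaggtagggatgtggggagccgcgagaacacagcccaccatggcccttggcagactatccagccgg
Prtn3: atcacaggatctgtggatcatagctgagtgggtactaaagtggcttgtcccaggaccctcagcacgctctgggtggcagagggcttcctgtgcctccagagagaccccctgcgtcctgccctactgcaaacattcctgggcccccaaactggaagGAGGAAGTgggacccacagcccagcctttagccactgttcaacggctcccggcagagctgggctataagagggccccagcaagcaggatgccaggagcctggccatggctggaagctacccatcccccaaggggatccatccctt
Mpo: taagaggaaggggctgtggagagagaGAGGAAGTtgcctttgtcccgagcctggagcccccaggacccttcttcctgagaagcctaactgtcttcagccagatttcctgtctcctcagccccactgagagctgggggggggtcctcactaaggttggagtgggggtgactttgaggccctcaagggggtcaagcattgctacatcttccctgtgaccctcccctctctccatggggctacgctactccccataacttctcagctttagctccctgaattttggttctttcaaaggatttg
Fcnb: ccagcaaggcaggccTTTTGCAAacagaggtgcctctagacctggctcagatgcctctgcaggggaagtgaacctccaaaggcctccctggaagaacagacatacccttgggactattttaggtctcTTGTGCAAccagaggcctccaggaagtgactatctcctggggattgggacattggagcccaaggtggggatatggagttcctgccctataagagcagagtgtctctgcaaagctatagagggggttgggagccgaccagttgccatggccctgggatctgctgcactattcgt
GAGGAAGT was present in 8 of 26 promoters (30.8%) of the neutrophil list genes found in the table, against 15 of 253 (5.93%) for all genes lower in the Pax5+/- leukaemias, 9 of 162 (5.56%) for all genes higher there and 3.2% of 32851 promoters. TTGCNNAA was present in 11 of those 26 (42.3%), against 27 of 253 (10.7%) for lower genes, 9 of 162 (5.56%) for higher genes and 10.8% of all promoters. Ctsg, Camp, Chil3, Cd177, Cebpe and Csf3r also fell and were not among the list genes with either match. The matches found describe letters in a window and are not evidence of binding.

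Ctsg, which encodes cathepsin G, was at 5.98, 7.49 and 8.92 (lowest, median and highest) in the Pax5+/- leukaemias, against 12.29 and 11.96 in those with both copies. The groups did not overlap, and Ctsg fell by 4.78 ± 0.65 on the log2 scale, or 27.4-fold (adjusted p = 0.00223). Elane, neutrophil elastase, was at 7.21, 7.94 and 9.85 in the Pax5+/- leukaemias, against 12.55 and 11.87 with both copies. Elane fell by 3.95 ± 0.62 (adjusted p = 0.0059) and missed the threshold without array 1 (adjusted p = 0.0694). Mpo, myeloperoxidase, was at 6.36, 8.30 and 9.85 in the Pax5+/- leukaemias, against 12.44 and 12.26 with both copies. Pax5+/- arrays 5 and 6 were the highest of their group and still under both arrays with both copies. Mpo fell by 4.13 ± 0.81 (adjusted p = 0.0205), without array 1 by 4.04 (adjusted p = 0.144). Prtn3, proteinase 3, was at 6.31, 7.31 and 8.52 in the Pax5+/- leukaemias, against 11.76 and 10.98 with both copies. Prtn3 fell by 3.98 ± 0.44 (adjusted p = 0.0004) and passed without either array.

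Among markers of later granules, 4 of 12 fell and the median was -3.33. Fcnb, a ficolin of granulocytes, was at 6.32, 6.59 and 7.37 in the Pax5+/- leukaemias, against 10.67 and 9.67 with both copies. The gene fell by 3.44 ± 0.33 (adjusted p = 0.000166), and the groups did not overlap. The antimicrobial peptide gene Camp (-3.96 ± 0.74), the chitinase-like Chil3 (-4.44 ± 0.87) and the surface antigen Cd177 (-3.26 ± 0.60) also fell, and all 3 missed the threshold without array 1 (adjusted p = 0.163, 0.206 and 0.166). Genes of mature neutrophils in the same list, such as S100a8 (-3.11 ± 1.15, adjusted p = 0.219) and Ly6g (-4.43 ± 1.35, adjusted p = 0.133), had differences of like size with larger errors and did not pass.

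Transcription factors and receptors of the same lineage fell in 4 of 9 measured genes, with a median of -3.18. Cebpe, the factor required for granulocytes to mature, was at 6.93, 7.26 and 7.79 in the Pax5+/- leukaemias, against 10.13 and 9.40 with both copies. Cebpe fell by 2.49 ± 0.28 (adjusted p = 0.000404) and passed without either array. Gfi1, a repressor needed for neutrophil development, fell by 1.30 ± 0.24 (adjusted p = 0.0144), as did Csf3r, the receptor for granulocyte colony-stimulating factor (-3.28 ± 0.53, adjusted p = 0.00641), whose call was lost without array 1 (adjusted p = 0.0778). Ms4a3, a marker of granulocyte and monocyte progenitors, was at 5.46, 5.98 and 6.79 in the Pax5+/- leukaemias, against 10.34 and 8.50 with both copies, and Ms4a3 fell by 3.41 ± 0.44 (adjusted p = 0.00127). Outside the list, Padi4, which converts arginine to citrulline in histones of neutrophils, was at 5.37, 5.47 and 6.18 in the Pax5+/- leukaemias, against 8.82 and 8.84 with both copies. Padi4 fell by 3.21 ± 0.31 (adjusted p = 0.000166). Gca, grancalcin of neutrophils (-3.20 ± 0.59), and the myeloid lectin Clec5a (-3.13 ± 0.68) fell too, and lost the call without array 1 (adjusted p = 0.2 and 0.25). Clec5a also lost it without any 1 of Pax5+/- arrays 1, 3, 4, 5 and 7 (adjusted p = 0.0504 to 0.0641).

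In the same direction, 2 of 8 basophil and mast cell markers fell and none rose, with a median of -1.23 (-0.27 with 1 gene lower without array 1, and -1.73 with 7 lower without array 2). Mcpt8, a basophil protease, was at 5.08, 5.49 and 6.69 in the Pax5+/- leukaemias, against 9.69 and 8.79 with both copies. Mcpt8 fell by 3.41 ± 0.58 (adjusted p = 0.00956), and missed the threshold without array 1 (-2.96, adjusted p = 0.117). Gata2, a transcription factor of progenitors and mast cells, was at 6.87, 7.31 and 7.80 in the Pax5+/- leukaemias, against 8.49 and 8.91 with both copies. Gata2 fell by 1.39 ± 0.24 (adjusted p = 0.0101), by 1.60 without array 1 and by 1.18 without array 2. With the 9 leukaemia arrays alone Gata2 missed the threshold (adjusted p = 0.0929). In the main fit it was the only 1 of 9 stem and progenitor markers to pass. The median of that list was -1.21, at -1.60 with 4 genes lower without array 1 and -0.32 with 3 lower without array 2. Hoxa9, a homeobox gene of progenitors, had a difference of -1.92 ± 0.45 (adjusted p = 0.0502), and passed without array 1 (-3.32, adjusted p = 2.58e-08) and without array 2 (-0.53, adjusted p = 0.0167). Cd34, at -2.76 ± 0.70 (adjusted p = 0.0706), and Mecom, at -2.86 ± 0.82 (adjusted p = 0.111), passed without array 1 (-4.45 and -5.44, adjusted p = 0.00309 and 3.98e-12).

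Other marrow cells were read through their markers, and with all arrays no member passed in the 6 lists that follow. The median of 14 erythroid genes was -1.38, at 0.77 with 0 genes past the test without array 1 and -3.37 with 7 lower without array 2. The smallest p was that of Tfrc, the transferrin receptor (-0.78 ± 0.31, adjusted p = 0.26), which was among those 7 (-1.44, adjusted p = 0.0132). The median of 10 dendritic cell genes was 0.93, at 0.03 with 0 past the test without array 1 and 1.70 with 3 higher without array 2. These 3 were Flt3 (5.08, adjusted p = 0.000151), Siglech, a lectin of plasmacytoid dendritic cells (4.35, adjusted p = 0.0225), and the transcription factor Tcf4 (2.18, adjusted p = 0.000654), which with all arrays differed by 1.02 ± 0.43 (adjusted p = 0.293). The median of 16 monocyte and macrophage genes was 0.63, at 1.40 without array 1 and -0.29 without array 2. That of 8 megakaryocyte genes was -0.24, at 0.45 without array 1 and -0.95 without array 2, with Gp9, a platelet glycoprotein, at -0.78 ± 0.90 (adjusted p = 0.8). That of 13 stroma and endothelium genes was 0.04, at 0.76 without array 1 and -0.47 with 1 higher without array 2, with the endothelial Emcn at 0.54 ± 0.54 (adjusted p = 0.762). That of 12 T cell genes was 0.02, at -0.11 with 1 lower without array 1 and 0.13 without array 2, with the coreceptor gene Cd4 at 1.62 ± 0.50 (adjusted p = 0.137). At an unadjusted p under 0.05 there were 1 erythroid, 2 dendritic cell, 2 monocyte and macrophage, 0 megakaryocyte, 0 stroma and endothelium and 2 T cell genes. The part of marrow cell content in the differences was not tested.

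Genes that were higher with 1 Pax5 copy included several that both arrays with both copies and the wild-type B cells showed at a low level. Igf2bp3, an RNA-binding protein of fetal haematopoiesis, was at 7.80, 9.19 and 9.60 in the Pax5+/- leukaemias, against 5.68 and 5.69 with both copies and a mean of 6.06 in B220+ cells. All 7 Pax5+/- arrays were above both. It rose by 3.41 ± 0.35, or 10.6-fold (adjusted p = 0.000214), and was the only 1 of 8 oncofetal genes to pass (median -0.01, at 0.10 without array 1 and -0.00 without array 2). Its relatives in fetal programmes, Lin28b (-0.00 ± 0.08, adjusted p = 0.999), Hmga2 (-0.01 ± 0.09, adjusted p = 0.981) and Igf2bp1 (0.11 ± 0.06, adjusted p = 0.423), did not.

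Serpinb9d, of the granzyme-inhibitor serpin family, had the largest rise among named genes. Its levels on Pax5+/- arrays 1 to 7 were 11.19, 11.50, 10.52, 6.63, 10.26, 9.26 and 10.88, against 4.78 and 4.65 with both copies and a mean of 4.63 in B220+ cells. Array 4 was low within its group, yet above both arrays with both copies. The rise was 5.32 ± 0.92 (adjusted p = 0.0105), and it missed the threshold without array 1 (5.38, adjusted p = 0.07). The median of 7 Serpinb9-related genes was 0.63 (1.36 without array 1 and 0.62 without array 2). Of the others none passed, and Serpinb9 itself differed by 1.52 ± 0.66 (adjusted p = 0.312). These genes are close paralogs, and no source used here says whether the probes tell them apart. Klri1, a natural killer cell lectin-like receptor, was at 7.66, 11.04 and 12.03 in the Pax5+/- leukaemias, against 5.64 and 6.88 with both copies. It rose by 4.34 ± 0.88 (adjusted p = 0.025), and without array 1 it missed the threshold (adjusted p = 0.24). Klri1 was the only 1 of 14 NK cell markers to pass (median 0.31, at 0.12 without array 1 and 0.27 without array 2): the defining NK genes Ncr1 (-0.42 ± 1.13, adjusted p = 0.932) and Eomes (-0.05 ± 0.65, adjusted p = 0.986) did not.

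Jun, a subunit of the AP-1 transcription factor, was at 10.26, 10.95 and 11.47 in the Pax5+/- leukaemias, against 8.10 and 8.37 with both copies and a mean of 11.48 in B220+ cells. The Pax5+/- arrays formed a tight group well above both arrays with both copies. Jun rose by 2.69 ± 0.25 (adjusted p = 0.000136) and passed without either array. It was the only 1 of 19 immediate early genes to do so: its partners and relatives Fos (0.25 ± 0.43), Junb (0.26 ± 0.18) and Jund (0.23 ± 0.25), and Egr1 (-0.09 ± 0.42), did not pass (adjusted p = 0.621 to 0.963). The median of that list was 0.25 (0.34 without array 1 and 0.11 without array 2).

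Dpp4, the surface peptidase CD26, was at 11.52, 11.86 and 12.51 in the Pax5+/- leukaemias, against 7.92 and 10.56 with both copies. Its B220+ mean was 11.93, near the Pax5+/- level. The groups did not overlap, though array 2 with both copies lay much nearer to the Pax5+/- arrays. Dpp4 rose by 2.72 ± 0.47 (adjusted p = 0.0105), by 1.40 without array 1 and by 4.04 without array 2. With the 9 leukaemia arrays alone Dpp4 missed the threshold (adjusted p = 0.127). Plch1, a phospholipase C, was at 7.24, 7.90 and 9.27 in the Pax5+/- leukaemias, against 5.10 and 5.33 with both copies. It rose by 2.93 ± 0.41 (adjusted p = 0.00288), as did Gpat3, an enzyme of glycerolipid synthesis (2.61 ± 0.32, adjusted p = 0.000782), Rgs7bp, which anchors regulators of G protein signalling (2.71 ± 0.44, adjusted p = 0.00684), and Ston1, an endocytic adaptor (2.60 ± 0.37, adjusted p = 0.00276). Without array 1 or without array 2 these 4 rose by 2.45 to 3.05. With the 9 leukaemia arrays alone Gpat3 passed (adjusted p = 0.0141). Plch1, Rgs7bp and Ston1 then missed the threshold (adjusted p = 0.0628, 0.1 and 0.0626). Ddit4, a stress-induced inhibitor of mTORC1, rose by 2.86 ± 0.49 (adjusted p = 0.0101, or 0.147 without array 1). The light chain gene Myl4 (3.35 ± 0.77, adjusted p = 0.0478) and the lipase-like gene Lipo3 (2.76 ± 0.62, adjusted p = 0.0417) rose narrowly. Both missed the threshold without array 1 (adjusted p = 0.47 and 0.0856) and without any 1 of 5 Pax5+/- arrays, namely 1, 2, 4, 5 and 7 for Myl4 (adjusted p = 0.0556 to 0.08) and 1, 2, 4, 6 and 7 for Lipo3 (adjusted p = 0.0551 to 0.0725). Lipo3 also missed it without array 2 (adjusted p = 0.126). The B220+ means of Gpat3 (9.12), Lipo3 (8.96) and Myl4 (12.32) were nearer to the Pax5+/- means (9.46, 8.70 and 11.48) than to those with both copies (6.84, 5.94 and 8.14). Those of Plch1 (5.16), Rgs7bp (6.72) and Ston1 (5.77) were near the means with both copies (5.22, 6.45 and 5.85). Among named genes that fell, the melanocortin receptor Mc5r was uneven between the arrays with both copies. It was at 5.43 to 5.84 in the Pax5+/- leukaemias, against 7.32 and 11.93 with both copies. The difference of -4.03 ± 0.74 passed (adjusted p = 0.0145), and was -6.33 without array 1 and -1.73 without array 2.

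**Figure D3:**
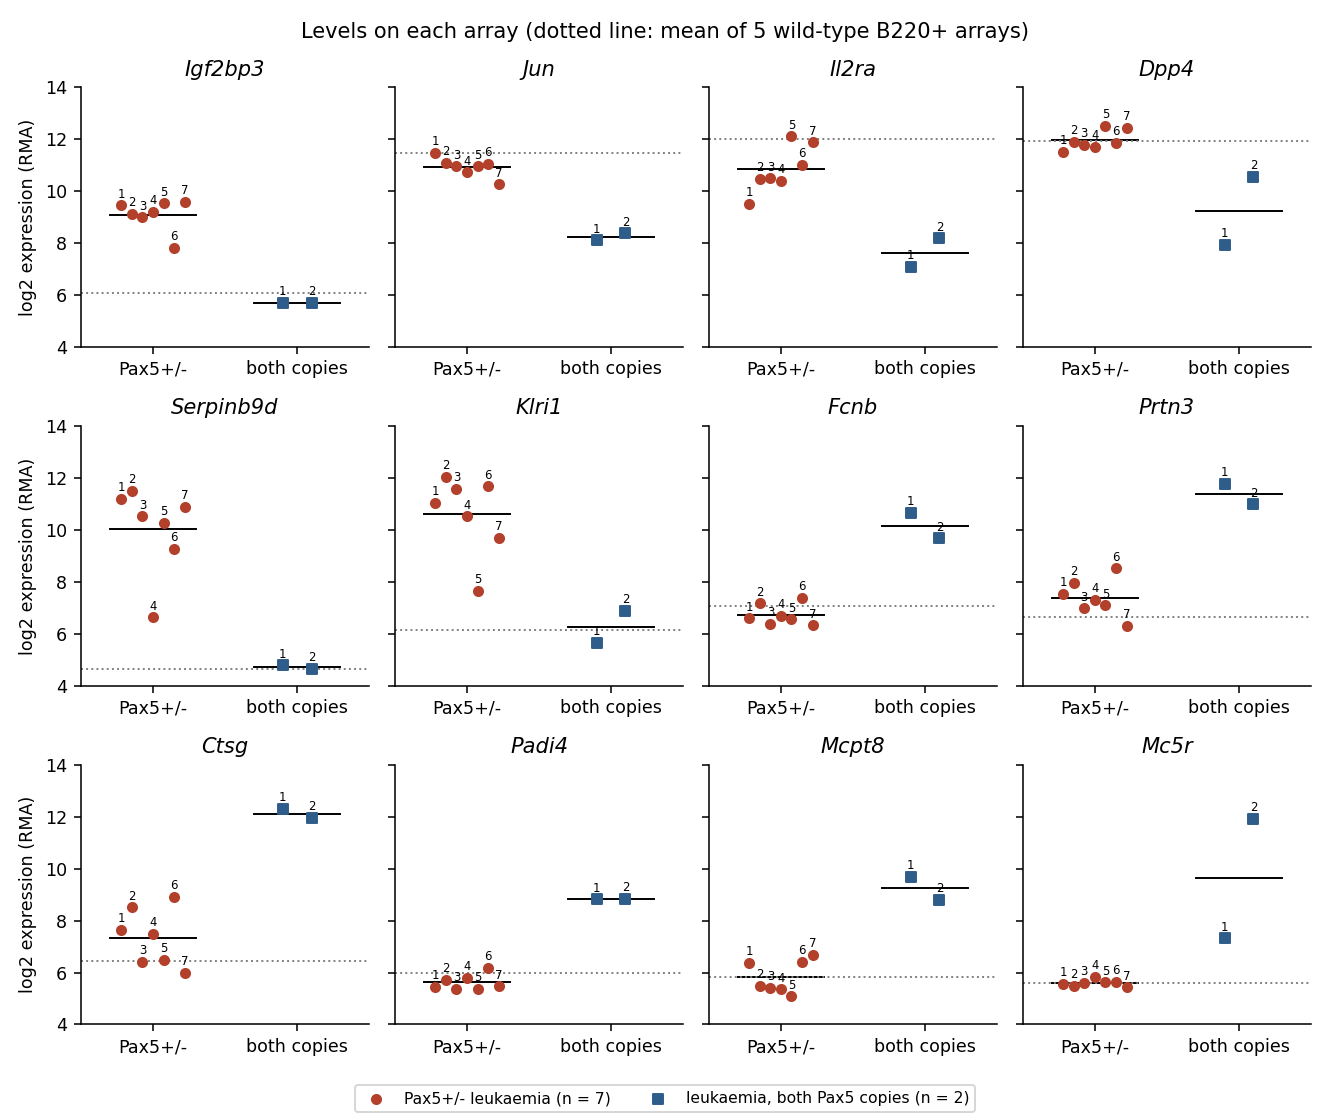
Log2 expression of 12 genes on each array of the Pax5+/- leukaemias (circles, n = 7) and of the leukaemias with both copies (squares, n = 2), with replicate numbers beside the points, group means as lines and the mean of 5 wild-type B220+ arrays dotted. In each panel the groups do not overlap, as the choice of these genes required. Igf2bp3 is near the B220+ mean of 6.06 with both copies (5.68 and 5.69), whereas Fcnb is near the B220+ mean of 7.08 in the Pax5+/- leukaemias (6.32 to 7.37).

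B cell genes leaned higher in the Pax5+/- leukaemias, with few members past the test. Of 10 B lineage markers 9 had a difference above 0 and 1 rose, with a median of 1.30 (0.88 without array 1 and 1.39 without array 2). The riser was Cd79b, a signalling chain of the B cell receptor, at 11.31, 12.03 and 12.64 in the Pax5+/- leukaemias, against 10.24 and 11.15 with both copies. Its rise of 1.29 ± 0.29 (adjusted p = 0.0427) was lost without array 1 (adjusted p = 0.481) and without any 1 of Pax5+/- arrays 1, 2, 4, 6 and 7 (adjusted p = 0.0515 to 0.0655). Among 20 PAX5-activated genes 16 were above 0 and 1 rose, with a median of 0.50 (0.55 with 0 genes past the test without array 1, and 1.03 with 2 higher without array 2). The gene that rose was Tnfrsf13c, the receptor for the survival factor BAFF, at 9.27, 10.28 and 11.11 in the Pax5+/- leukaemias, against 7.99 and 8.66 with both copies and a mean of 12.40 in B220+ cells. All 7 Pax5+/- arrays lay above both arrays with both copies and under the B220+ mean. Tnfrsf13c rose by 2.10 ± 0.39 (adjusted p = 0.0148, or 0.172 without array 1). Of 25 B lineage transcription factors none passed (9 at an unadjusted p under 0.05), with a median of 0.39. Ebf1, which acts with Pax5 in commitment, differed by 1.03 ± 0.62 (adjusted p = 0.528), and Pou2f2 had the smallest p (1.06 ± 0.28, adjusted p = 0.079). Without array 1 that median was 0.08 and 1 gene was lower, Ikzf2 (-1.97, adjusted p = 0.0453). Without array 2 it was 0.84 and 5 genes were higher, namely Mef2c (2.28, adjusted p = 3.84e-05), Bach2 (1.78, adjusted p = 0.00531), Spib (2.42, adjusted p = 0.00969), Pou2f2 (1.53, adjusted p = 0.00983) and Bcl11a (0.84, adjusted p = 0.0499). Among 19 genes that PAX5 represses, Mpo alone passed, and it fell. The median of these genes was 0.08, and it turned to -0.43 with 0 past the test without array 1, and was 0.16 without array 2, where Flt3 was higher and Mpo lower. The myeloid receptor Csf1r, held down by PAX5 in B cells, differed by 1.39 ± 0.56 (adjusted p = 0.267).

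In the signalling chain of the B cell receptor, 20 of 21 genes were above 0 and 3 rose, with a median of 0.60 (0.29 with 0 past the test without array 1, and 1.04 with 7 higher without array 2). Besides Cd79b these were Fyn, a Src-family kinase (1.26 ± 0.22, adjusted p = 0.0105), and Pik3cd, the leukocyte PI3-kinase subunit (1.00 ± 0.22, adjusted p = 0.0385). Without array 1 neither passed (adjusted p = 0.151 and 0.464), and Pik3cd also missed the threshold without any 1 of Pax5+/- arrays 1, 3, 4 and 5 (adjusted p = 0.0539 to 0.0572). Of 19 genes of MHC class II and the mature B cell surface 16 were above 0, with a median of 1.32 (1.23 with 0 past the test without array 1, and 1.43 with 3 higher without array 2). Tnfrsf13c rose, as did the tetraspanin Cd37 (1.00 ± 0.19, adjusted p = 0.0186, or 0.231 without array 1). The class II chains H2-Aa (1.58 ± 0.48, adjusted p = 0.129) and H2-Eb1 (1.65 ± 0.57, adjusted p = 0.188), and the invariant chain Cd74 (1.54 ± 0.40, adjusted p = 0.075), did not pass. H2-Eb2, a related class II gene outside that list, was at 8.41, 9.79 and 11.22 in the Pax5+/- leukaemias, against 7.04 and 7.48 with both copies, and it rose by 2.67 ± 0.50 (adjusted p = 0.017, or 0.153 without array 1). Class II genes are close paralogs, and no source used here says whether the probes tell them apart.

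Il2ra, the CD25 chain of the interleukin 2 receptor that marks pre-B cells in mice, was at 9.52, 10.49 and 12.11 in the Pax5+/- leukaemias, against 7.08 and 8.18 with both copies and a mean of 12.01 in B220+ cells. The Pax5+/- arrays lay above both arrays with both copies without overlap. Il2ra rose by 3.21 ± 0.53 (adjusted p = 0.00758, or 0.113 without array 1). It alone passed among 18 genes of the interleukin 7 and interleukin 2 receptors, JAK and STAT5 (median 0.18, at 0.19 without array 1 and 0.39 without array 2), and among 14 early B cell surface antigens (median 0.21, at -0.24 with 1 lower without array 1 and 0.71 with 5 higher without array 2). Il7r, the interleukin 7 receptor, was at 10.92 to 12.97 in the Pax5+/- leukaemias, against 8.82 and 11.78 with both copies, a difference of 1.74 ± 0.60 (adjusted p = 0.19). Its difference was 0.26 without array 1 (adjusted p = 0.952) and passed without array 2 (3.23, adjusted p = 0.00213). Mzb1, an endoplasmic reticulum protein of B and plasma cells that assists antibody assembly, was at 10.34, 10.93 and 12.55 in the Pax5+/- leukaemias, against 8.41 and 8.23 with both copies. Its B220+ mean was 11.03, near the Pax5+/- level. Mzb1 rose by 2.80 ± 0.45 (adjusted p = 0.00684), by 2.89 without array 1 and by 2.71 without array 2. With the 9 leukaemia arrays alone Mzb1 missed the threshold (adjusted p = 0.0931). In the main fit it was the only 1 of 10 plasma cell markers to pass (median 0.17, at 0.35 without array 1 and -0.02 without array 2). Other genes of antibody secretion such as Xbp1 (0.06 ± 0.15, adjusted p = 0.92) and Jchain (0.92 ± 0.56, adjusted p = 0.529) did not. Among 15 genes of V(D)J recombination and the surrogate light chain none passed (4 at an unadjusted p under 0.05), with a median of 0.23 (-0.33 without array 1, and 0.82 with 1 higher and 1 lower without array 2). Hmgb2, a chromatin protein that aids DNA cutting by the recombinase, had the smallest p (-0.60 ± 0.19, adjusted p = 0.138) and passed without array 2 (-0.86, adjusted p = 0.0322). Rag1, a recombinase subunit, differed by 0.31 ± 1.00 (adjusted p = 0.945).

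Genes of the NF-kB pathway lay higher together. All 13 measured subunits and feedback genes had a difference above 0, 4 rose and the median was 0.94 (0.81 without array 1 and 0.92 without array 2). In 8 of the 13 the groups did not overlap, against 4.25% of all genes not overlapping in that direction. Nfkbia, which encodes the inhibitor that holds NF-kB in the cytoplasm and is itself an NF-kB target, was at 10.18, 10.93 and 11.69 in the Pax5+/- leukaemias, against 9.78 and 9.90 with both copies. It rose by 1.14 ± 0.26 (adjusted p = 0.0463). Nfkbiz, a nuclear co-regulator (0.84 ± 0.17, adjusted p = 0.0275), Birc3, a ubiquitin ligase of the pathway (1.06 ± 0.23, adjusted p = 0.0351), and Nfkb2, the subunit of the non-canonical branch (1.13 ± 0.26, adjusted p = 0.047), rose as well. None of the 4 passed without array 1 (adjusted p = 0.114 to 0.389), and Nfkbia and Nfkb2 also missed the threshold without array 2 (adjusted p = 0.0543 and 0.127). Without 1 Pax5+/- array the calls of Birc3 (arrays 1, 2 and 3, adjusted p = 0.0528 to 0.0622), Nfkbia (arrays 1, 2, 3, 4 and 6, 0.0541 to 0.0747) and Nfkb2 (arrays 1, 4, 6 and 7, 0.0507 to 0.0712) were lost. The B220+ cells had means of 11.90 for Nfkbia and 10.34 for Nfkb2, above every leukaemia.

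In energy metabolism, genes of glucose use leaned lower. Of 23 genes of glucose uptake and glycolysis 5 fell and 0 rose, with a median of -0.29 (-0.45 with 1 lower without array 1, and 0.03 with 4 lower and 1 higher without array 2). Hk3, a hexokinase abundant in myeloid cells, was at 6.18, 6.80 and 7.91 in the Pax5+/- leukaemias, against 9.24 and 8.42 with both copies. Hk3 fell by 1.98 ± 0.38 (adjusted p = 0.0199, or 0.239 without array 1). Ldhb, a lactate dehydrogenase subunit, was at 5.92, 6.31 and 6.64 in the Pax5+/- leukaemias, against 7.11 and 9.01 with both copies. Array 2 carried most of that difference of -1.75 ± 0.39 (adjusted p = 0.0404), which was -0.80 without array 2 (adjusted p = 0.189) and lay past the threshold without array 1 (-2.70, adjusted p = 0.00143). The call for Ldhb was also lost without any 1 of Pax5+/- arrays 1, 2, 3, 5, 6 and 7 (adjusted p = 0.0529 to 0.0714). Pfkfb4 (-0.92 ± 0.18, adjusted p = 0.0219) and the muscle-type phosphofructokinase Pfkm (-0.95 ± 0.21, adjusted p = 0.0385) fell, and so did the lactate exporter Slc16a3 (-0.97 ± 0.22, adjusted p = 0.0427), named after its value was seen. Without array 1, Pfkfb4 and Pfkm missed the threshold (adjusted p = 0.309 and 0.488), as did Slc16a3 (adjusted p = 0.389), and Pfkm also without any 1 of Pax5+/- arrays 1 to 5 (adjusted p = 0.0511 to 0.0638).

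The neutrophil markers were lower in the same group as these enzymes (6.87 to 9.32 in the Pax5+/- leukaemias, against 11.46 and 10.80 with both copies). Array by array the enzymes differed. On Pax5+/- array 7, with the lowest neutrophil level, Hk3 (6.18) and Ldhb (5.92) were the lowest of their group. Pfkfb4 (8.08) and Pfkm (8.41) were the highest of their group on that array. Pax5+/- array 6 had the highest neutrophil level (9.32). There Pfkfb4 (7.99) and Pfkm (8.32) were below only array 7 of their group. Hk3 (7.21) was below only array 2, and Ldhb (6.19) was above only arrays 1 and 7. The part of granulocyte content in the enzymes' levels was not tested. Hk2, the hexokinase tied to growth of leukaemia cells, differed by -0.48 ± 0.22 (adjusted p = 0.343), and Slc2a1, the main glucose importer, by 0.14 ± 0.29 (adjusted p = 0.909). In the pentose phosphate pathway and nucleotide synthesis 2 of 22 genes fell, Pgd (-0.85 ± 0.17, adjusted p = 0.0259) and Rpia (-1.06 ± 0.23, adjusted p = 0.0353). The list's median was -0.23 (-0.35 without array 1 and -0.08 without array 2). Both genes missed the threshold without array 1 (adjusted p = 0.226 and 0.464), and Rpia without any 1 of Pax5+/- arrays 1, 4 and 5 (adjusted p = 0.0504 to 0.0622). Of 28 genes of the citric acid cycle and fatty acid oxidation 1 rose, the fumarate hydratase Fh1 (0.66 ± 0.13, adjusted p = 0.0177, or 0.187 without array 1), with a median of 0.00 (-0.03 without array 1 and 0.11 without array 2). Oxidative phosphorylation had 0 of 40 genes past the test, 4 at an unadjusted p under 0.05 and a median of -0.03 (0.03 without array 1 and -0.05 without array 2). Its smallest p was that of Ndufc2, a subunit of complex I (0.41 ± 0.15, adjusted p = 0.212), which passed without array 2 (0.68, adjusted p = 0.0219). Of 14 genes of the energy restraint by PAX5 and IKZF1, Hk3 alone passed and the median was -0.08 (0.10 without array 1 and -0.26 without array 2). The gatekeepers Txnip (0.45 ± 0.29, adjusted p = 0.557), Nr3c1 (0.34 ± 0.25, adjusted p = 0.63) and Cnr2 (-0.38 ± 0.32, adjusted p = 0.688) did not pass.

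**Figure D4:**
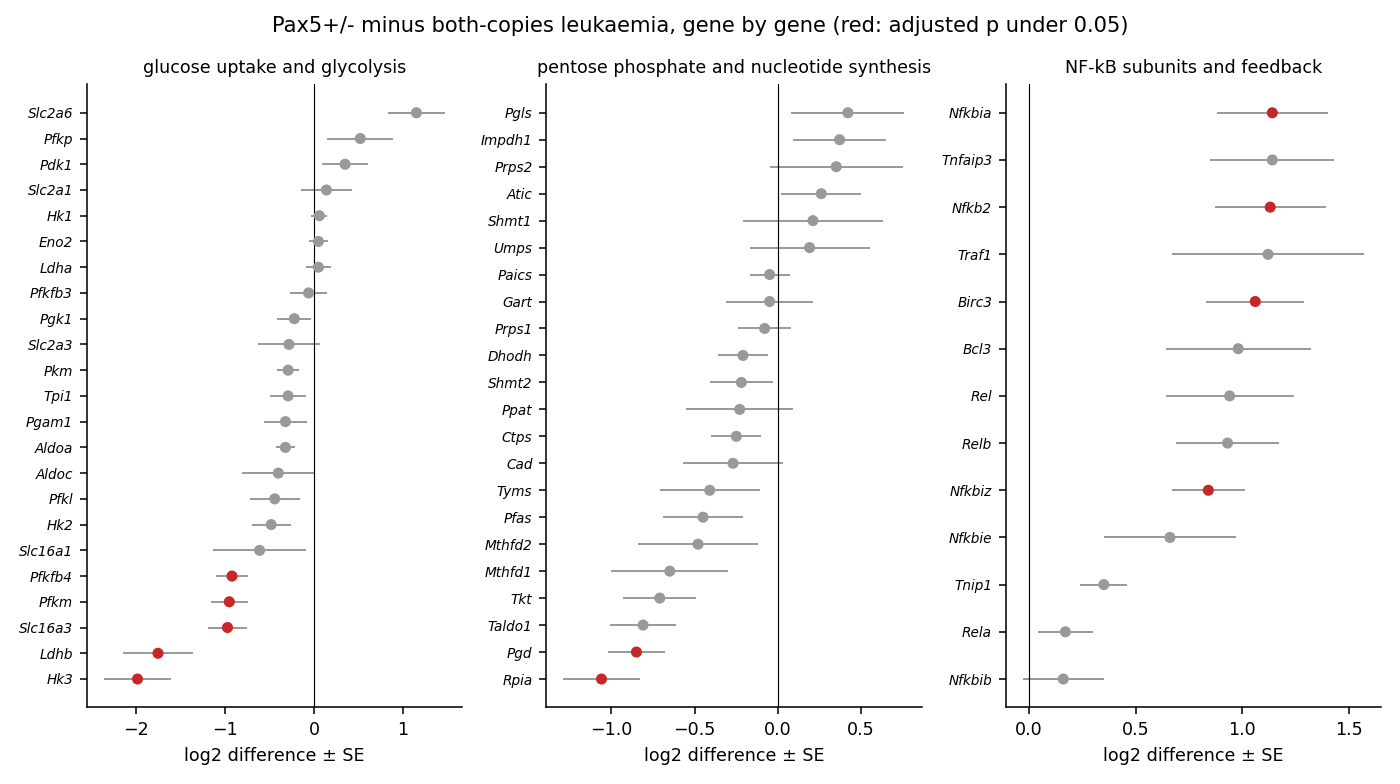
Log2 difference of Pax5+/- leukaemias (n = 7) minus leukaemias with both copies (n = 2), with standard error bars from limma, for every measured gene of 3 lists; red points passed the test. All 13 NF-kB genes lie above 0 (0.16 to 1.14), while the 7 red metabolic genes lie below 0, from Hk3 at -1.98 to Pgd at -0.85.

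Proliferation genes leaned lower without a member past the test. All 24 cell cycle genes and all 24 DNA replication genes had a difference below 0, with medians of -0.51 and -0.50, set against -0.22 and -0.33 without array 1 and -0.83 and -0.65 without array 2. At an unadjusted p under 0.05 there were 7 cell cycle and 12 replication genes, against 2766 of all 19938 genes. The proliferation marker Mki67 differed by -0.54 ± 0.28 (adjusted p = 0.425) and Cdc20, which starts anaphase, by -0.61 ± 0.18 (adjusted p = 0.117, or 0.0299 without array 2). Without array 2 some members of both lists were lower and passed, and without array 1 none did. Of all genes, too, more passed without array 2 than without array 1. Cdt1, which licenses replication origins, was nearest to the threshold (-0.72 ± 0.17, adjusted p = 0.0527). Of 29 genes of MYC and ribosome biogenesis 1 passed: Mxi1, an antagonist of MYC, fell by 1.16 ± 0.19 (adjusted p = 0.00671, or 0.104 without array 1), and the median was 0.03 (-0.21 without array 1 and 0.30 without array 2).

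In 9 further lists no gene passed with all arrays, and 5 of the medians turned in sign in a repeat. The interferon response (22 genes) had a median of -0.17, at 0.15 without array 1 and -0.54 without array 2. Its smallest p was that of Oas3, which makes the activator of RNase L (-1.50 ± 0.50, adjusted p = 0.175), and which passed without array 2 (-2.58, adjusted p = 0.00669). Homing receptors (18 genes) had a median of 0.22, at -0.08 without array 1 and 0.50 without array 2, with Cxcr2, the chemokine receptor of neutrophils and also a member of the neutrophil list, at -3.44 ± 0.97 (adjusted p = 0.105). Antioxidant genes (23) had a median of -0.35, at 0.08 with 0 past the test without array 1 and -0.83 with 8 lower without array 2. Gpx1, a glutathione peroxidase (-0.72 ± 0.24, adjusted p = 0.17), was among those 8 (-1.10, adjusted p = 0.0272). Cholesterol and fatty acid synthesis (22 genes) had a median of -0.27, at -0.54 without array 1 and 0.10 with 1 higher without array 2, with Fdps, which makes farnesyl diphosphate, at -0.88 ± 0.28 (adjusted p = 0.154). Histone deacetylases (16 genes) had a median of 0.01, at -0.07 without array 1 and 0.25 with 2 higher without array 2, where Hdac9 passed (2.05, adjusted p = 0.000346, against 1.19 ± 0.33 and 0.097 with all arrays).

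G1 control (20 genes) had a median of -0.32, at -0.21 with 1 lower without array 1 and -0.59 with 3 lower and 1 higher without array 2. The gene past the test without array 1 was the cyclin-dependent kinase inhibitor Cdkn1c (-0.49, adjusted p = 0.0478), at -0.34 ± 0.09 with all arrays (adjusted p = 0.0898). Chemokines (20 genes) had a median of 0.29, at 0.64 without array 1 and 0.18 with 1 lower without array 2, with Ccl22 at 1.02 ± 0.41 (adjusted p = 0.265). ERK feedback (12 genes) had a median of 0.37, at 0.12 without array 1 and 0.43 without array 2, with Nf1, which switches off RAS, at 0.37 ± 0.13 (adjusted p = 0.2). The BCL2 family (14 genes) had a median of 0.01, at 0.04 without array 1 and 0.00 with 2 higher and 1 lower without array 2. Its smallest p was that of Pmaip1, which encodes the death-promoting NOXA (0.83 ± 0.20, adjusted p = 0.0556). At an unadjusted p under 0.05 there were 1 interferon, 1 homing, 7 antioxidant, 3 cholesterol and fatty acid, 4 deacetylase, 8 G1 control, 1 chemokine, 1 ERK feedback and 6 BCL2 family genes.

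The same genotype contrast was also made in sorted pro-B and pre-B cells, which asked whether the differences are present before overt disease. Between 3 Pax5+/- and 3 both-copies precursors 5 genes passed (2849 at an unadjusted p under 0.05), and 0 of them were among the 373. The difference between the stages, tested on all 24 arrays, passed for 138 genes (0.692%), 45 with a positive and 93 with a negative value (leukaemia minus precursors). Of these 138, 114 were among the 373. That overlap is partly built in, because the stage difference contains the leukaemia difference. The spread in this fit is shared with the sorted samples. Igf2bp3 rose by 3.41 ± 0.35 in leukaemia, against 0.33 in precursors, with a stage difference of 3.08 (adjusted p = 0.000811). Jun rose by 2.69 ± 0.25 in leukaemia, against 0.07 in precursors (stage difference 2.63, adjusted p = 0.000334). Prtn3 differed by -3.98 in leukaemia, against -0.39 in precursors, and Fcnb by -3.44, against -0.63 (stage differences -3.60 and -2.81, adjusted p = 0.0091 and 0.0124). For some granule genes the stage difference did not pass: Ctsg had -4.78 in leukaemia and -1.09 in precursors (adjusted p = 0.0897), and Mpo had -4.13 and -1.11 (adjusted p = 0.263). The neutrophil list's median was -1.15 in the sorted precursors. The precursors with both copies were uneven in some of these genes. Ctsg and Mpo had standard deviations of 1.51 and 1.66 there, against 0.16 and 0.19 in the Pax5+/- precursors. The stages differ in cell sort as well as in disease, and these cannot be told apart.

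**Figure D5:**
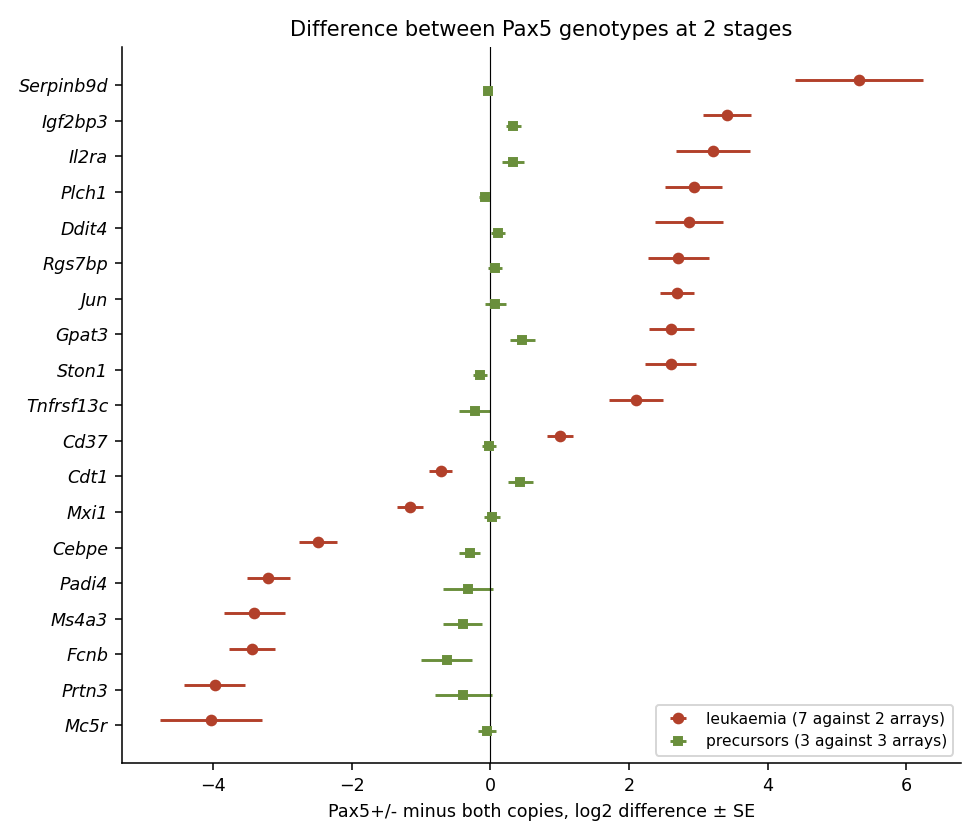
Log2 difference of Pax5+/- minus both copies, with standard error, for 19 named genes whose difference between the stages passed limma: circles are overt leukaemia (7 against 2 arrays) and squares are sorted precursors (3 against 3 arrays). In the precursors every gene lies within 0.63 of 0, while in leukaemia the values span -4.03 (Mc5r) to 5.32 (Serpinb9d). The choice by stage difference favours genes with small precursor values, so their nearness to 0 is partly built in. Named genes outside this choice had larger precursor differences, such as Chil3 (-1.56) and H2-Eb2 (1.23).

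The 7 Pax5+/- leukaemias also varied among themselves. The largest spread of Pax5 was between array 5 (8.37) and array 7 (12.06). Array 7 had the lowest neutrophil marker level (6.87), and array 6 had the highest (9.32). Correlation with the Pax5 level over these 7 arrays was computed for 13 genes. None passed with exact two-sided permutation tests and Benjamini-Hochberg adjustment over the 13 (adjusted p of r from 0.801 to 0.964). By Pearson's r over all 7 arrays Mpo gave the strongest relation (r = -0.634, exact permutation p = 0.119; rho = -0.607, exact permutation p = 0.167; r = -0.556 without arrays 1 and 5, the farthest from the Pax5 median). By Spearman's rho Rag1 did (rho = -0.679, exact permutation p = 0.11; r = -0.414). Vpreb1 of the surrogate light chain gave r = -0.616 (exact permutation p = 0.145). Ebf1 gave r = -0.18 and Cd79a r = 0.261 (exact permutation p = 0.694 and 0.555). The adaptor Blnk gave r = -0.485 over 7 arrays and -0.893 without arrays 1 and 5, and Csf1r 0.3 and 0.758. The factor Ikzf3 gave r = -0.385 (exact permutation p = 0.392), and 0.198 without that pair. Other values also turned in sign: Igf2bp3 from -0.105 to 0.596, Mki67 from 0.0312 to -0.549 and Cd79b from -0.139 to 0.256. So did Ebf1 (0.0879 without the pair) and Cd79a (-0.0536). Many of these correlations therefore depended on that pair of arrays.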

How the data were processed

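Total RNA (Trizol) was fragmented, biotinylated and read on Affymetrix mouse gene arrays, per the labels' protocols. The values the authors deposited are log2 expression of each probe set by RMA (background correction, quantile normalization, probe summary) from the package oligo, per the submitters' processing notes. No source used here gives their versions. Of 35556 probe sets 21789 had 1 gene symbol, 1621 several and 12146 none. Only those with 1 were used, and the probe set with the highest mean over 24 arrays stood for each of 19938 genes. Names were updated through RefSeq (21698 probe sets matched).

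Groups were compared in R 4.3.3 by limma 3.58.1 with moderated, two-sided tests and an adjusted p threshold of 0.05, on the 14 arrays of the leukaemias and B220+ cells, which share 1 estimate of the spread. Stages were compared on all 24 arrays. The comparison, the 41 gene lists (718 of 779 entries measured) and the naming rule were chosen with earlier results of these data known. Lists are described by counts and medians, with no test. Text names Pax5, Abl1, Bcr, Xist and Y-linked genes, the 15 largest non-overlapping differences in each direction past the test (antigen receptor segments and unnamed models left out), up to 4 members past the test of each list or the member with the smallest p, and the genes correlated with Pax5. Other genes are named as contrasts within a list and were chosen after their values were seen. Simulated data for the leukaemia contrast over 19938 genes held changes of 0.5, 1 and 2 in 67, 67 and 66 genes. Of these, 46.3, 68.7 and 92.4% were recovered, with 7 false among 145 calls. Each simulated gene had 1 spread on all arrays. The real groups can differ: Mc5r had a standard deviation of 0.13 in the Pax5+/- leukaemias and 3.26 with both copies. The simulation therefore does not give the rate of false calls in the real data.

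Same-numbered leukaemias had deviations from the group means that correlated at 0.138 (number 1) and -0.102 (number 2), while unlike numbers reached 0.369. With only 2 arrays with both copies, their deviations mirror each other, so each correlation recurs with its sign turned. The check therefore cannot show or exclude a pairing, and the labels state none. Scalings, array weights, other sample sets, a dim filter, the mean of probe sets and left-out arrays were tried as alternatives. The labels name no separate batch.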

Additional observations from a re-analysis of the deposited data

Results flagged for a closer look

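Within the 7 Pax5+/- leukaemias, 3 named genes had 1 array far from the others by Dixon's test, which by chance marks about 1 in 20 groups tested. Igf2bp3 was low on array 6 at 7.80, still above both arrays with both copies. Lipo3 was low on array 3 at 6.54, just above array 1 with both copies at 6.52. Cdt1 was high on array 5 at 9.70, below both arrays with both copies.

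For 19 named genes the genotype difference in leukaemia minus that in sorted precursors passed limma on all 24 arrays. The positive ones were Serpinb9d (5.36), Igf2bp3 (3.08), Plch1 (3.01), Il2ra (2.88), Ddit4 (2.75), Ston1 (2.75), Rgs7bp (2.64), Jun (2.63), Tnfrsf13c (2.33), Gpat3 (2.16) and Cd37 (1.02). The negative ones were Mc5r (-3.98), Prtn3 (-3.60), Ms4a3 (-3.01), Padi4 (-2.88), Fcnb (-2.81), Cebpe (-2.19), Mxi1 (-1.17) and Cdt1 (-1.15). Adjusted p ran from 0.000334 (Jun) to 0.0496 (Cd37). Cell sort and disease stage cannot be told apart in these differences.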

How the results depend on the processing

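The count of genes past the test, 373, was 83 with array weights, 85 with the 9 leukaemia arrays alone, 1038 with all 24 arrays in the fit and 229 with a log2 difference of at least 1. It was 367 to 442 under the other scalings, the intensity trend, the dim filter and the mean of probe sets. Leaving out each of 14 arrays gave 262 to 2137 genes, the highest without array 2 with both copies, and 104 of the 373 passed under every left-out array. With the replicate number as a block, although no label says that equal numbers pair the samples, 106 genes passed. The stage difference passed for 138 genes, 38 with array weights, 178 after median centring, 209 with the replicate block, and 301 and 1381 without arrays 1 and 2 with both copies. No correlation with Pax5 passed under the scalings tried. None of the 85 named genes changed direction past the test under any alternative. Of 49 past the test, 36 lost the call with array weights, 36 with 9 arrays, 31 with the block, 32 without array 1 and 4 without array 2, and 0 to 2 under the scalings. List medians moved by less than their spread under each scaling, while 14 turned in sign without array 1 and 5 without array 2. The 2 arrays with both copies, which differ from each other, limit every value; the cause of these changes was not tested.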

Other observations

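Some genes outside the lists passed the test with all arrays and also without array 1 and without array 2 with both copies. They were chosen after their values were seen. Kdm5b, a histone H3 lysine demethylase, was at 5.98, 6.52 and 7.39 (lowest, median and highest) in the Pax5+/- leukaemias, against 8.86 and 9.75 with both copies and a mean of 9.68 in B220+ cells. It fell by 2.68 ± 0.30 (limma adjusted p = 0.000404), and its level with both copies was near that of the B220+ cells. Igf1r, the insulin-like growth factor receptor, was at 6.25, 7.37 and 7.93 in the Pax5+/- leukaemias, against 9.76 and 9.54 with both copies and 7.09 in B220+ cells. It fell by 2.32 ± 0.35 (adjusted p = 0.00434). Alas1, the first enzyme of haem synthesis in cells outside the red lineage, was at 8.50 to 9.04 in the Pax5+/- leukaemias, against 10.39 and 9.98 with both copies, and fell by 1.34 ± 0.14 (adjusted p = 0.000311). Pygl, a glycogen phosphorylase, fell by 2.85 ± 0.39 (adjusted p = 0.00231).

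In the other direction, St6gal1, the sialyltransferase that makes the CD22 ligand, was at 9.87, 10.50 and 10.89 in the Pax5+/- leukaemias, against 8.41 and 8.57 with both copies and 11.19 in B220+ cells. It rose by 2.00 ± 0.20 (adjusted p = 0.000212). The receptor Gpr18 was at 10.36, 11.06 and 11.28 in the Pax5+/- leukaemias, against 8.12 and 9.10 with both copies, and rose by 2.31 ± 0.25 (adjusted p = 0.000358). Plxnb2, a semaphorin receptor, was at 10.52 to 11.36 in the Pax5+/- leukaemias, against 9.09 and 9.26 with both copies and 8.48 in B220+ cells, and rose by 1.72 ± 0.21 (adjusted p = 0.000767).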
